A study of Rattus norvegicus with 2 samples.

Results

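The mineralization regulators described here are 9 genes that control where calcium phosphate is laid down in a tissue: Enpp1, Ankh, Alpl, Spp1, Ibsp, Mgp, Sparc, Runx2 and Tnfrsf11b. They were taken from a named list and matched by symbol to the probe sets that the platform annotation pairs with 1 gene, and all 9 were found among 18166 named genes, each with 1 probe set. RNA was compared between undifferentiated C6 glioma, a tumor line of rat glia, and SMiNs, the cells obtained from that line after 35 days with 20 μM CHIR99021, an inhibitor of the kinase GSK3, and 100 μM forskolin, which raises cAMP. The doses and the 35 days are those of the sample labels. By the study's general methods for culture and induction, which do not single out the arrays, C6 glioma grew in medium with serum, while SMiNs were induced on Matrigel in a serum-free neural induction medium with the neurotrophic factors BDNF and GDNF. The sample labels give 1 serum-containing medium and the same small-molecule treatment for both samples, and C6 glioma was taken as untreated from its title. Small molecules, medium, coating and days in culture therefore differed together between the groups and cannot be told apart. Each group was 1 array of 1 line, so there was no spread between replicates, no test could be made, and every fold below describes this pair of arrays.

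Mineral forms where calcium and phosphate are not kept in solution by inhibitors. The strongest small inhibitor is inorganic pyrophosphate: ENPP1 makes it from ATP outside the cell, ANKH exports ATP or pyrophosphate from the cell, and the alkaline phosphatase encoded by Alpl breaks pyrophosphate down to phosphate. Acidic secreted proteins then bind the mineral or its precursors, RUNX2 switches on the osteoblast program, and osteoprotegerin, encoded by Tnfrsf11b, blocks RANK ligand, the signal that makes osteoclasts. Outside bone, several of these genes are known in glial cells and tumors, osteopontin (Spp1) above all.

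The 9 genes held some of the largest differences on the arrays, in both directions. Tnfrsf11b and Mgp were far brighter in SMiNs, Enpp1 and Spp1 far brighter in C6 glioma, Ankh and Runx2 moderately brighter in C6 glioma, and Sparc bright on both. Alpl and Ibsp were not above background on either array. At least 2-fold (a log2 difference of 1 or more) separated the arrays for 6 of 9 genes, 2 higher in SMiNs and 4 lower. The shares of the 18166 named genes past the same threshold were 4.27% on the higher side and 8.12% on the lower side. The 9 genes were chosen from their names with the log2 differences of these same 2 arrays in view, so the counts describe the list and nothing is read from them. The median log2 difference of the 9 genes was -0.49, against 0 over all named genes, of which 4121 had equal values on both arrays. The median of the 9 genes hides the spread, which ran from -4.80 for Enpp1 to 5.54 for Tnfrsf11b. The C6 glioma value of Tnfrsf11b was below background.

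**Figure D1:**
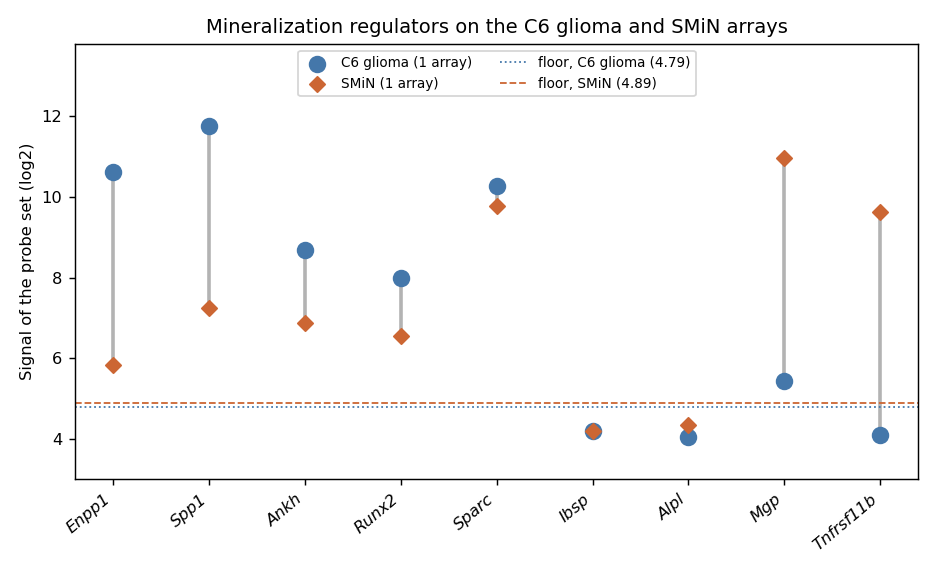
Signal (log2, vertical axis) of the probe set of each mineralization regulator on the C6 glioma array (circles) and the SMiN array (diamonds), ordered by the difference, with the background floor of each array as a horizontal line. Enpp1, Spp1, Ankh and Runx2 lie lower in SMiNs, Mgp and Tnfrsf11b lie higher, and Ibsp and Alpl lie below both floors.

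Background was set from 1360 probe sets of olfactory and vomeronasal receptors, genes taken as silent in these cells. The 95th percentile of their log2 signal, 4.79 in C6 glioma and 4.89 in SMiNs, served as the floor of each array, and 7 of the 9 genes reached it on at least 1 array. Among the 11306 named genes that did so, the shares past 2-fold were 5.75% higher and 12.9% lower. The receptor probe sets also show how far signals of silent genes moved between the 2 arrays. Of these probe sets, 500 had exactly equal values on both arrays, which narrows the percentiles. The log2 differences of all 1360 ran from -1.92 to 2.12, and the percentiles 1 and 99 were -0.75 and 1.44. The differences of Tnfrsf11b, Mgp, Enpp1 and Spp1 lay outside that whole range, whereas those of Ankh and Runx2 lay inside its extremes. The signals of Ankh and Runx2 were above the floor on both arrays. The 9 genes were chosen with their differences in view, and silent genes do not measure how expressed genes vary between cultures. The range is therefore no test of the 9 genes. For 146 genes, 2 probe sets each reached the floor of 1 array or both. The log2 differences given by the 2 probe sets lay a median of 0.24 apart. The 90th percentile of that gap was 1, as large as the 2-fold threshold. The 9 genes have 1 probe set each, so no such gap is known for them.

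**Figure D2:**
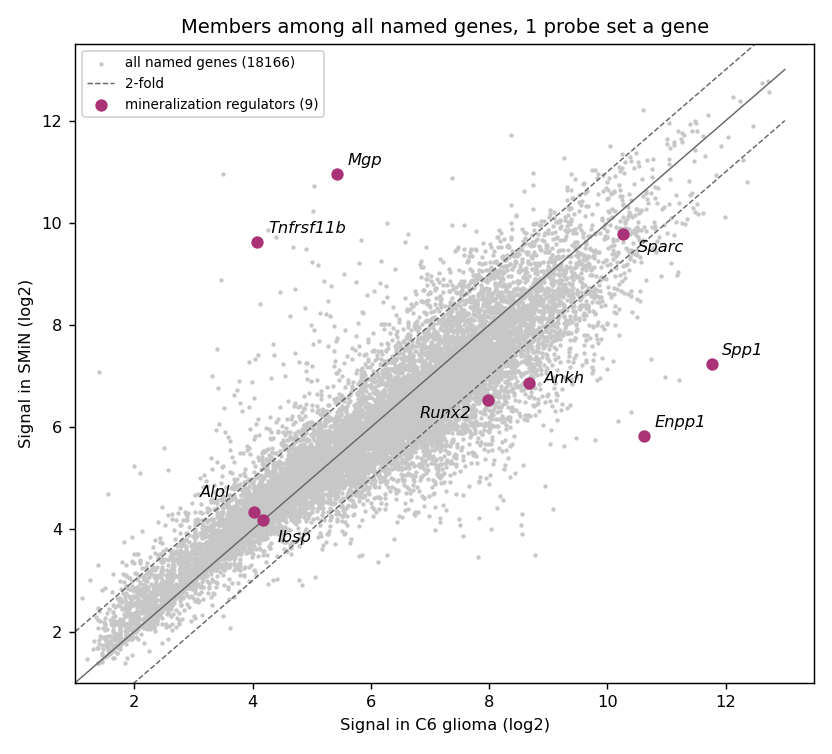
Signal in SMiNs (vertical axis, log2) against signal in C6 glioma (horizontal axis, log2) for 18166 named genes (small gray points) and the 9 mineralization regulators (large points), with dashed lines at 2-fold. Mgp and Tnfrsf11b lie at the upper edge of all genes and Enpp1 and Spp1 at the lower edge, while Sparc, Alpl and Ibsp lie near the diagonal.

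Enpp1, the pyrophosphate-making ectoenzyme, gave a log2 signal of 10.62 in C6 glioma against 5.82 in SMiNs. It was 27.8-fold lower in SMiNs, and only 1 of the 18166 named genes had a more negative difference. Its SMiN signal remained above the floor of 4.89. It was below a stricter floor, the 99th percentile of the receptor probe sets, which was 6.05 in SMiNs. Against that floor Enpp1 was at least 23.8-fold lower. Ankh, the exporter that acts beside ENPP1, stood at 8.68 in C6 glioma and at 6.87 in SMiNs (log2 signal), 3.51-fold lower, and ranked 342 from the lowest difference. Enpp1 and Ankh, the members of the list on the supply side of pyrophosphate, were thus lower on the SMiN array. Alpl, on the removal side, had a C6 glioma signal of 4.03 and an SMiN signal of 4.35 (log2). Both values were below the floor, so no fold is given for the phosphatase. In these bulk cultures fewer cells that express a gene and less RNA per cell cannot be told apart.

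The wider pyrophosphate and phosphate list held 13 measured genes, of which Enpp1 and Ankh were the 2 at least 2-fold lower and 1 was at least 2-fold higher. The higher gene was Nt5e, which encodes CD73 and turns the AMP left by ENPP1 into adenosine and phosphate. Its log2 signal was 7.82 in C6 glioma against 9.07 in SMiNs, 2.38-fold higher. Among the 10 genes under 2-fold were Slc20a1, a phosphate importer, at 9.08 in C6 glioma and 9.95 in SMiNs, and Ppa1, the cytosolic pyrophosphatase, at 7.73 and 8.72 in the same order. Ppa1 was 1.99-fold higher, just under the threshold. Xpr1, a phosphate exporter, gave a log2 signal of 7.91 in C6 glioma against 7.06 in SMiNs. Abcc6, the transporter whose ATP release feeds ENPP1 in liver, and Phex, an endopeptidase of bone that governs phosphate balance, were below the floor on both arrays. The list median was 0, which is the difference of Abcc6 and Phex, whose values were the same on both arrays. The median over all named genes was also 0, with 4121 of them equal on both arrays. Over the named genes reaching the floor it was -0.08.

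Spp1 encodes osteopontin, a phosphorylated glycoprotein that binds mineral through its acidic stretches and cells through integrins and CD44. Its log2 signal was 11.76 in C6 glioma against 7.24 in SMiNs. It was 23.0-fold lower in SMiNs and ranked 5 from the lowest of all named genes. Ibsp, bone sialoprotein, which nucleates mineral in bone, read 4.18 on each array, below the floor. Of 12 mineral-binding and related genes, Spp1 was the 1 at least 2-fold lower and Mgp the 1 at least 2-fold higher, and 7 had equal values. One of these was Fam20c, the kinase that phosphorylates osteopontin, at 6.78 on each array, above the floor. Equal values were common, with 19.9% of 36685 probe sets exactly the same on both arrays, so equality is not read here as an unchanged transcript.

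Spp1 and Ibsp belong to the SIBLING family, whose genes lie side by side in the genome. In the RefSeq annotation (GRCr8) the order of protein-coding genes is Pkd2, Spp1, Mepe, Ibsp, Dmp1, Dspp, Sparcl1, Scpppq1, Nudt9, Hsd17b11, Hsd17b13 and Klhl8. All 12 were measured, 6 were above background somewhere, and only 1, Spp1, differed by 2-fold or more. The bone matrix genes Mepe at 4.06 and Dmp1 at 2.55 read the same on each array, below the floor. Dspp, a dentin matrix gene, stood at 5.09 in C6 glioma and at 5.48 in SMiNs (log2 signal). Pkd2, the polycystin gene on the other side of Spp1, had a C6 glioma signal of 8.76 and an SMiN signal of 7.76 (log2), 1.99-fold lower. The SIBLING genes next to Spp1 were therefore near or under background in both cultures, and the 23.0-fold difference was not shared by any measured gene of this stretch.

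**Figure D3:**
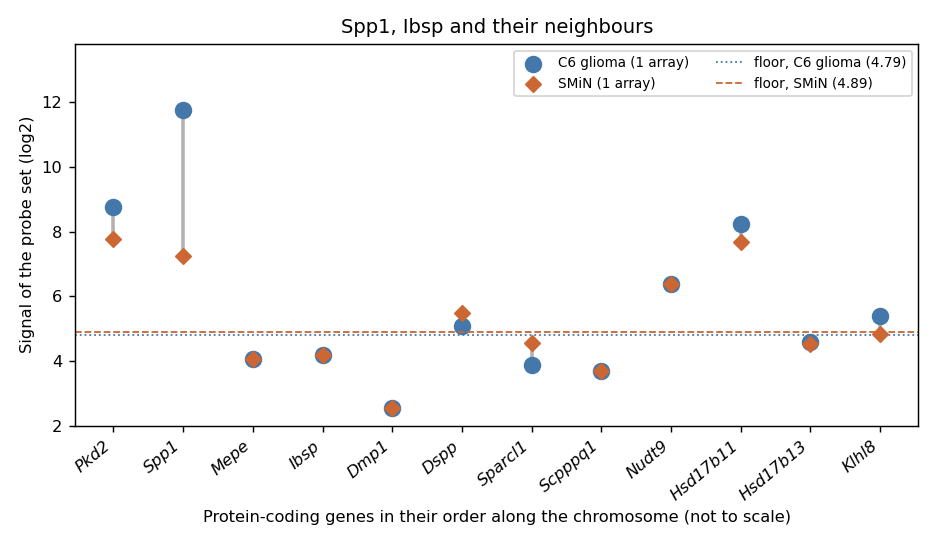
Signal (log2, vertical axis) of 12 neighbouring protein-coding genes in chromosome order, C6 glioma as circles and SMiN as diamonds, with the floor of each array as a horizontal line. Spp1 shows the one wide gap, from 11.76 to 7.24, while Mepe, Ibsp and Dmp1 lie below the floors with both symbols on the same point.

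The sequences before the starts of Spp1 and Ibsp are shown because these 2 genes of one cluster had such different signals. The RefSeq promoter table held windows for 6 of the 9 genes (Spp1, Alpl, Ankh, Runx2, Sparc and Ibsp), 7 windows in all since Runx2 has 2, and none for Enpp1, Mgp and Tnfrsf11b. Each printed run is the 250 bases before an annotated start, 5′ to 3′ on the strand of the gene, build GRCr8. Capitals mark matches, on either strand, to the RUNX core TGTGGT, the cAMP response element core TGACG, the TCF site CTTTGAT or the TATA box TATAAA.
Spp1, chr14:5619805-5620054, minus strand: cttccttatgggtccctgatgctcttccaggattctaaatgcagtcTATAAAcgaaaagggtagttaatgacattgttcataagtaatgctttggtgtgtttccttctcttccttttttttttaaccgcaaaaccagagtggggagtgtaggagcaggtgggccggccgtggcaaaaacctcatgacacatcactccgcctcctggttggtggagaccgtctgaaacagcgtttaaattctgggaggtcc
Ibsp, chr14:5757243-5757492, minus strand: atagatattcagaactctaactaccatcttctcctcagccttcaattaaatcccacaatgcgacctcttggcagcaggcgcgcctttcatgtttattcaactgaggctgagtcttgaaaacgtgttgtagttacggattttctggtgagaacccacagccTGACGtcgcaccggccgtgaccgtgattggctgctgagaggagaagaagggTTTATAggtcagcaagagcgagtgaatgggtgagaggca
Runx2, upstream window, chr9:23664808-23665057, plus strand: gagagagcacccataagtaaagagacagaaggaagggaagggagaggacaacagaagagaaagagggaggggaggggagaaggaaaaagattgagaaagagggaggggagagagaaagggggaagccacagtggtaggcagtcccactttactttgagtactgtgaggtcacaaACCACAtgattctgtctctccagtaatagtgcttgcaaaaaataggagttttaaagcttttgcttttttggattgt

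The Spp1 window held a TATAAA match and none of the other motifs searched. The Ibsp window held a TATAAA match on the opposite strand and a TGACG match. The TATAAA match lay near the upstream end of the Spp1 window, far from the start, and nearer the start in the Ibsp window. Runx2 is printed with Spp1 and Ibsp because RUNX2 binds promoters of bone genes, its own included. Its upstream window held 1 RUNX core, and its other window held 1 TGACG match. The Sparc window also held 1 RUNX core. Of 33469 windows of this length in the table, 14.5% held the RUNX core, 18.2% held TGACG, 12.9% held TATAAA and 3.15% held CTTTGAT. The full cAMP response element TGACGTCA, which contains the core, was in 1.59% of all windows and in none of these 7, and none of them held CTTTGAT. The windows of Ankh and Alpl held none of these motifs and were GC-rich, with 79.2% and 76.0% G or C against 46.8% for Spp1 and 49.2% for Ibsp. The annotated Spp1 and Runx2 genes also reach further upstream than the starts used here. A match of letters is a description of the sequence and not a bound site.

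Mgp, matrix Gla protein, is a small secreted protein that keeps arteries and cartilage free of mineral once vitamin K-dependent carboxylation has converted its glutamates. Its log2 signal was 5.43 in C6 glioma, above the floor of 4.79, and 10.96 in SMiNs. It was 46.2-fold higher in SMiNs, with the 6th highest difference of all named genes. The C6 glioma signal was below the 99th percentile floor of 5.64, against which Mgp was at least 40.1-fold higher. The enzymes that carboxylate it were measured on the same arrays. Ggcx, the carboxylase, gave a log2 signal of 8.13 in C6 glioma against 7.46 in SMiNs, and Vkorc1l1, a vitamin K reductase, had 7.57 and 7.13 in the same order. Vkorc1, the main reductase, stood at 7.05 in C6 glioma and at 7.07 in SMiNs (log2 signal). All 3 enzyme genes were thus above the floor on both arrays and differed by less than 2-fold, and of 6 genes in the carboxylation list Mgp was the only 1 past 2-fold. Bglap, which encodes the related bone protein osteocalcin, lay at the floor with log2 signals of 4.88 and 4.90.

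MGP also binds bone morphogenetic proteins. Of 8 genes for BMP ligands and their antagonists, 1 passed 2-fold upward and 0 downward. It was Bmp2, an osteogenic ligand, which read 4.89 in C6 glioma, close to the floor, and 6.22 in SMiNs, 2.52-fold higher. Bmp7, a ligand of kidney and bone, was above the floor on both arrays, at 8.99 in C6 glioma against 8.62 in SMiNs (log2 signal). Chrd, which encodes the antagonist chordin, had 5.01 and 5.40 in the same order. Of the 8, 4 were below the floor on both arrays, among them Bmp4 and Nog.

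Sparc encodes osteonectin, a collagen- and calcium-binding matrix protein abundant in bone and in many gliomas. Its log2 signal was 10.27 in C6 glioma against 9.78 in SMiNs, a 1.40-fold lower signal in SMiNs, so the gene was bright in both cultures. Of 8 genes of the SPARC family, 1 passed 2-fold downward and 0 upward. The lower gene was Fstl1, a secreted follistatin-like relative, at 9.83 in C6 glioma against 7.73 in SMiNs (log2 signal), 4.30-fold lower. Spock2, a testican of brain matrix, had 5.22 in C6 glioma and 6.09 in SMiNs, and Smoc1, a secreted calcium-binding relative, read 5.19 on each array. The closest relative, Sparcl1, an astrocyte matrix protein, was below the floor on both arrays.

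Runx2, the transcription factor that commits cells to the osteoblast lineage, had a C6 glioma signal of 7.98 and an SMiN signal of 6.54 (log2). It was 2.71-fold lower in SMiNs and ranked 674 from the lowest of all named genes. Of 13 measured genes in the list of RUNX2 and osteoblast transcription factors, 2 were at least 2-fold lower, Runx2 itself and Zfp521, and 1 was at least 2-fold higher. Zfp521, a zinc finger protein that restrains RUNX2 in mouse osteoblasts, gave a log2 signal of 8.28 in C6 glioma against 6.04 in SMiNs, 4.72-fold lower. The higher gene was the homeobox gene Dlx3, with 5.19 in C6 glioma against 6.35 in SMiNs, 2.23-fold higher. Runx1, the blood-cell paralog, had 8.08 and 7.15 in the same order, a 1.91-fold lower signal. Cbfb, the partner subunit that all RUNX proteins need, had 7.51 in C6 glioma and 6.94 in SMiNs, and Atf4, which acts with RUNX2 in osteoblasts, had 10.48 and 9.76. The list median was -0.49, and 1 of its genes, Dlx5, had the same value on both arrays.

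The gene that acts directly after RUNX2 in osteoblasts was near background. Sp7, which encodes osterix, gave a C6 glioma signal of 4.84, at the floor, against 4.43 in SMiNs, below it (log2). Of 5 measured osteoblast markers, Dmp1 and Phex were below the floor on both arrays and Bglap lay at it. The exception was Col1a1, the collagen that bone mineral fills, with 8.16 in C6 glioma against 5.91 in SMiNs, 4.76-fold lower. The defining markers of osteoblasts were thus near or under background while Runx2, Spp1 and Col1a1 were well above it in C6 glioma. Chondrocyte markers were also low, with 4 of 5, Acan among them, below the floor on both arrays and Col2a1 at 5.30 in C6 glioma and 5.19 in SMiNs.

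Tnfrsf11b, the osteoprotegerin gene, gave a log2 signal of 4.08 in C6 glioma, which is below the floor, against 9.62 in SMiNs. Measured against the floor, it was at least 28.4-fold higher in SMiNs. With the stricter floor at the 99th percentile of the receptor probe sets, 5.64 in C6 glioma, that bound fell to at least 15.7-fold. The C6 glioma value was not above background, so no rank among all genes is given. Osteoprotegerin is a decoy receptor, and the proteins it is known to trap were examined beside it. Tnfsf11, which encodes RANK ligand, read 4.47 in C6 glioma against 4.83 in SMiNs (log2 signal), and Tnfsf10, which encodes TRAIL, had 3.52 and 3.76. Both ligand genes were below the floor on both arrays, as was Tnfrsf11a, the RANK receptor, at 4.71 on each. Of 5 measured genes of this axis, the only other one above the floor was the adaptor Traf6, with 7.09 in C6 glioma and 6.99 in SMiNs. The decoy receptor was therefore bright in SMiNs with neither of its ligand genes above background there.

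**Figure D4:**
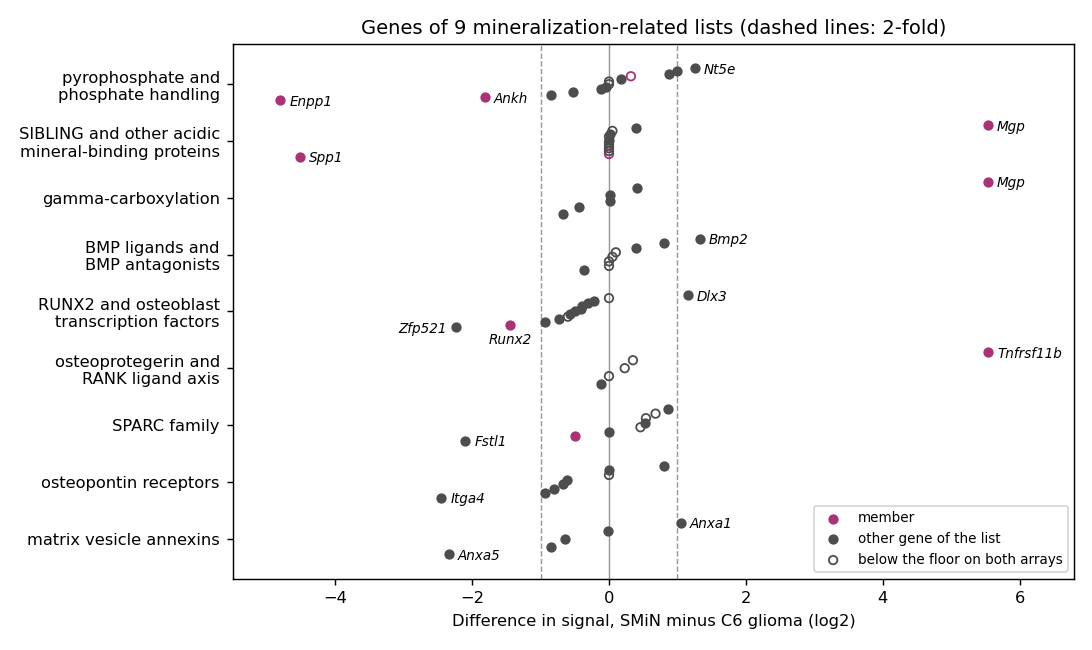
Difference in signal, SMiN minus C6 glioma (log2, horizontal axis), of each measured gene in 9 mineralization-related lists (rows), with dashed lines at 2-fold, mineralization regulators in color and genes below the floor on both arrays as open circles. The members Enpp1, Spp1, Mgp and Tnfrsf11b lie apart from the other genes shown, whose differences lie between -2.45 and 1.33. The members were chosen with these differences in view, so the gap describes the choice and is not a separate result.

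Receptors and matrix vesicle proteins were examined as the partners of osteopontin and of the mineral itself. Of 8 measured osteopontin receptor genes, 1 passed 2-fold downward and 0 upward, and the median log2 difference was -0.64. It was the integrin subunit Itga4, at 6.79 in C6 glioma against 4.34 in SMiNs (log2 signal), below the floor there, at least 3.73-fold lower. Itgb1, the integrin subunit with the most partners, had 10.47 in C6 glioma and 9.80 in SMiNs, and Cd44, which also binds hyaluronan, had 9.08 and 8.47. Both receptor genes were above the floor on both arrays and differed by less than 2-fold. Of 5 annexins found in mineralizing vesicles, Anxa5 was 5.07-fold lower in SMiNs, with 10.49 in C6 glioma and 8.15 in SMiNs, and Anxa1 was 2.08-fold higher, with 9.83 and 10.88. Anxa2 and Anxa6 were under 2-fold, with log2 signals of 10.96 and 10.05 in C6 glioma and 10.32 and 9.20 in SMiNs.

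Across the 67 measured genes of these lists other than the 9 members, 4 passed 2-fold upward (Nt5e, Bmp2, Dlx3 and Anxa1) and 4 downward (Zfp521, Fstl1, Itga4 and Anxa5). Their median log2 difference was 0, with 15 of them equal on both arrays, and 21 of them were below the floor on both arrays. These shares, 5.97% each way, compare with 4.27% higher and 8.12% lower over all named genes. At 16-fold or more, the 9 genes held Tnfrsf11b and Mgp among the higher and Enpp1 and Spp1 among the lower, and with the 99th percentile floor Tnfrsf11b, at 15.7-fold, was no longer among them. Of all named genes, 0.0881% were that much higher and 0.0771% that much lower, which is 16 and 14 genes. The 9 genes were chosen with their differences in view. As deposited, no fold of theirs lay between 3.51 (Ankh) and 23.0 (Spp1). The counts at 16-fold therefore describe the list and the cut, and nothing is read from them.

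Markers of the labelled cells and of other cell types were read on the same arrays. Of 7 markers of oligodendrocyte precursors and glioma, 5 were at least 2-fold lower in SMiNs, as Enpp1, Spp1, Ankh and Runx2 were, namely Pdgfra (10.18 in C6 glioma, 6.13 in SMiNs), Cspg4 (7.99 and 4.89), Olig1 (6.56 and 4.88), Nes (8.54 and 7.46) and Vim (12.36 and 10.80). The other 2 were Sox10, at 8.87 and 8.48, and Olig2, at 5.29 on each array. The summed linear signal of these 7 was 7644 in C6 glioma and 2482 in SMiNs, and its part in the lower signals of the 4 genes was not tested. Of 7 neuronal markers, Tubb3 was 2.24-fold higher in SMiNs, at 5.28 in C6 glioma and 6.44 in SMiNs. Map2, a microtubule protein of dendrites, read 8.44 and 8.58 in the same order, and Snap25, a synaptic protein, 5.72 and 6.22, both under 2-fold. Rbfox3 and Syn1 lay near the floor, and Dcx and Stmn2 were below the floor on both arrays. The summed linear signals of the 7 were 518 in C6 glioma and 636 in SMiNs, with Map2 the largest part of each. None of 4 measured astrocyte markers differed by 2-fold, with Gfap at 5.97 in C6 glioma and 5.40 in SMiNs, S100b at 9.28 and 10.06, and Aqp4 and Slc1a3 below the floor on both arrays. Macrophages and microglia, well-known makers of osteopontin, were represented by 6 markers. Of these, 5 were below the floor on both arrays, including Aif1, Csf1r and Ptprc, and Cd68 was at 4.95 in C6 glioma and 4.49 in SMiNs. Their summed linear signal was 107 in C6 glioma and 108 in SMiNs. Of 5 measured fibroblast and pericyte markers, Pdgfrb was 5.39-fold lower in SMiNs, Col3a1 read 5.65 on each array, Rgs5 read 4.69 in C6 glioma and 5.32 in SMiNs, and Lum and Dcn were below the floor on both arrays, with summed linear signals of 342 and 156. The 3 measured osteoclast and 3 measured endothelial markers each had 2 below the floor on both arrays, Oscar and Emcn among them. The others were Ctsk, at 5.65 in C6 glioma and 4.77 in SMiNs, and Tek, at 5.53 and 4.62.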

How the data were processed

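Total RNA of 2 cultures was measured on 1 Affymetrix whole-transcript rat array each. The authors labeled cDNA, scanned the arrays and processed them in the Affymetrix Command Console. What they deposited is 1 log2 signal per probe set and array, for 36685 probe sets. The array medians were 4.79 (C6 glioma) and 4.85 (SMiN). The method of summarization and normalization is not given in the sources used here, and the base of the logarithm was read from the range of the values. Values were used as deposited. Signal depends on the probe set, so each gene was compared between arrays. Levels of different genes were set against each other only to choose the probe sets, list genes and sequences shown, and in the summed marker signals. In those sums the brightest probe sets weigh most.

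Gene names came from the annotation of the platform, in which 18511 probe sets carried 1 symbol and 575 several, and 17599 are unnamed here. Where probe sets shared a gene, the brightest over both arrays stood for it. The Entrez numbers of 18058 of 18166 named genes were found in the RefSeq table, and no coordinates of probe sets are given because the build of the array is not given in the sources used here. A value below the floor of its array gives a fold against that floor, written as "at least". No p-value, SE or interval can be had from 1 array per condition, and the number of arrays limits the precision.

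The 9 genes and all lists were chosen with earlier results of these data known. Beside the 9 genes, the text names list genes that differ by 2-fold or more with the higher value not below its floor, and the 2 brightest others of each list. Xpr1, Abcc6, Phex, Vkorc1, Bmp4, Nog, Sparcl1, Cbfb, Dlx5, Dmp1, Tnfrsf11a, Tnfsf10, the neighbours of Spp1 and some cell markers lie outside this rule and were named after their values were seen. The 2-fold count was run on simulated arrays with known changes. Those arrays had little noise, and only bright genes were changed, by more than 2-fold. The run therefore checks the calculation and says nothing on how reliable the folds given here are. The alternatives were median centring, quantile normalization, the mean of all probe sets, 3 treatments of low values and a 4-fold threshold. The mean of the 9 genes in place of their median was added after the data were seen. Python 3.11.15, numpy 2.4.6, pandas 2.3.3 and matplotlib 3.10.9 were used.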

Additional observations from a re-analysis of the deposited data

How the results depend on the processing

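Under the 6 alternatives that give a value for single genes, all 52 values of the 9 mineralization regulators kept their side of the 2-fold threshold. The 6 genes past it kept their direction. Part of this was fixed in advance. Each of the 9 genes has 1 probe set, so the mean of all probe sets repeats the main value. Leaving out genes under both floors changes no remaining value, and median centring lowers every log2 difference by the same 0.06. Alpl and Ibsp had no value where genes under both floors were dropped. With low values set to a floor, both genes took only the difference between the floors of the arrays, 0.1 or 0.4. Those values say nothing on the 2 genes. The log2 difference of Tnfrsf11b ranged from 3.98, with the floor at the 99th percentile of the receptor probe sets, to 5.54, that of Mgp from 5.32 to 5.53, that of Enpp1 from -4.86 to -4.57 and that of Spp1 from -4.58 to -4.46. Ankh ranged from -1.88 to -1.62 and Runx2 from -1.50 to -1.22. With a 4-fold threshold the count of lower genes was 2 in place of 4, since Ankh and Runx2 differ by less, while that of higher genes stayed at 2. The share of all named genes past 4-fold was not taken, so nothing is read from these counts. The median log2 difference of the list, -0.49, was -1.44 without the genes under both floors, which leaves 7, and the mean, added after the data were seen, was -0.19. No paired analysis was possible because there was 1 array per condition. The same lack of replicates limits every value here. Signals at the floor set only a bound on the fold of Tnfrsf11b, and with the 99th percentile floor on those of Enpp1 and Mgp too.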
